A study of Rattus norvegicus with 4 samples.

Results

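Genes of extracellular matrix turnover, the inhibitors Timp1, Timp2 and Timp3 and the metalloproteinases Mmp2, Mmp9 and Mmp14, were followed over 4 oligonucleotide arrays of the rat left ventricle. Their probe sets were found by gene symbol. All 6 genes were found, with 8 probe sets among the 8799 on the array, out of 4736 genes in all with a probe set of their own. Total RNA had been hybridised to 1 array for each of 4 groups, so no group had a replicate. The control was the Sprague Dawley strain (SD control). The others were the double transgenic rat with human renin and human angiotensinogen (dTGR), terminal heart failure, and dTGR given losartan, a drug that blocks the type 1 receptor for angiotensin II. Every sample, the control included, carries the same description, by which the transgenic rats survive for 7 weeks and have high blood pressure, an enlarged heart and protein in the urine. Whether the terminal sample came from a transgenic rat is not stated in its title. Dose, age at sampling and the number of animals behind an array are likewise not stated. All 9 cardiomyocyte markers on the array lay above the floor of measurement on every array.

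Matrix metalloproteinases are zinc-dependent enzymes that cut collagens, gelatins and other proteins of the extracellular matrix and are secreted or displayed as inactive precursors. TIMPs, the tissue inhibitors of metalloproteinases, bind the active site of these enzymes, and they also bind some precursors. In the heart the balance between both families sets how fast the matrix between cardiomyocytes is rebuilt under pressure load.

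Values are intensities, scaled so that all arrays had the same trimmed mean, and values under 26.0, the 40th percentile of all values, were treated as under the floor. A difference is called when it reached 2-fold with at least 1 of both arrays above the floor. With 1 array per group no test was possible. Probe sets of the same gene gave log2 differences with an SD of 0.51 to 0.60 in the 6 comparisons of arrays, called the technical SD here. This SD does not include the spread between animals. It also leaves out what the probe sets of a gene share on an array, as from RNA preparation or hybridisation. The arrays came in 2 chip lots, 1 shared by SD control and dTGR and the other by the losartan and terminal arrays. The terminal array was run on its own day and the dTGR array with its own fluidics protocol, and within a comparison these factors and the group cannot be told apart. The dTGR record lists 0 cycles of wash A1, 0 of wash B and 0 s of first stain, against 10, 4 and 600 s on the others. Of its values, 63.5% lay above the floor, against 58.2% to 59.1% on the others. The ratio of 3' to 5' signal was highest on the losartan array (2.17 for Gapdh and 2.26 for actin, against 1.28 to 1.73 and 1.46 to 2.07 on the others).

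Timp1, a secreted inhibitor that also binds the precursor of Mmp9, covered the widest range of the 6 genes. Its intensity was 193 in SD control, 595 in dTGR, 285 in dTGR given losartan and 2416 in terminal heart failure. A second probe set, made from the same expressed sequence tag and therefore not independent, read 56.2, 308, 69.7 and 1684. Both probe sets put the arrays in the same order, with SD control lowest, then losartan-treated dTGR, then dTGR, and terminal heart failure highest. The neighbours SD control and losartan-treated dTGR differed by 0.57 on the log2 scale, close to the technical SD of 0.52 for that pair, and by 0.31 on the second probe set.

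**Figure D1:**
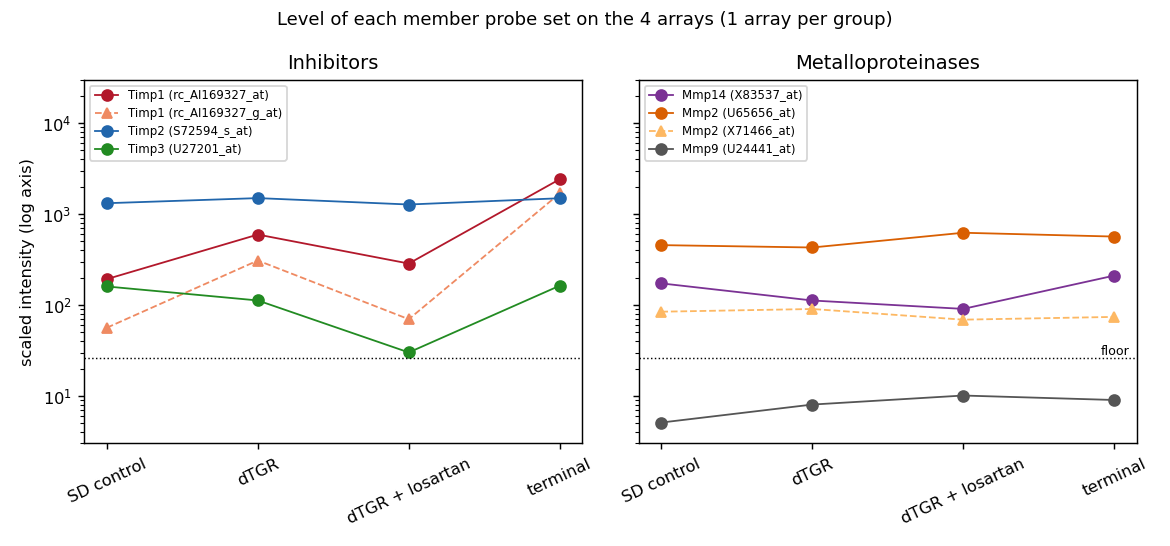
Scaled intensity (log axis) of each probe set of the inhibitors (left) and the metalloproteinases (right) on the 4 arrays, 1 array per group, with lines joining the points of 1 probe set, triangles for a second probe set and the floor dotted. Timp1 ran from 193 to 2416 and was lower in losartan-treated than in untreated dTGR, Timp3 was lowest after losartan at 30.1, and all 4 points of Mmp9 lay under the floor.

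In dTGR, Timp1 was 3.09-fold higher than in SD control, a log2 difference of 1.63, and it was 5.49-fold higher on the second probe set. Timp1 stood at rank 60 from the highest among 3614 genes in that comparison. Of the 5 members above the floor, Timp1 was the 1 that was called higher, where 7.69% of all genes were, and 0 of 5 were called lower, against 5.87% of all genes. These arrays shared a chip lot and a run day and differed in fluidics protocol.

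In terminal heart failure the level of Timp1 was 12.5-fold that of SD control, or 30.0-fold on the second probe set. That difference of 3.65 on the log2 scale held rank 7 from the highest among 3371 genes. It was 7.13 times the technical SD of 0.51, a ratio that is no test, since that SD covers only part of the spread. Among the members 1 of 5 was at least 2-fold higher and 0 of 5 lower, against 6.38% and 8.4% of all genes. The terminal array exceeded the dTGR array 4.06-fold for Timp1 (5.46-fold on the second probe set), at rank 34 of 3604 genes. Here too 1 of 5 members was at least 2-fold higher and 0 were lower, where the shares over all genes were 7.69% and 11.8%. Against losartan-treated dTGR, the array of the same chip lot, Timp1 in terminal heart failure was 8.46-fold higher, and 24.2-fold on the second probe set.

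Losartan-treated dTGR had 2.08-fold less Timp1 signal than untreated dTGR, a log2 difference of -1.06, and 4.42-fold less on the second probe set. The first of these passed the 2-fold line narrowly and fell short of it, at -0.82, when arrays were scaled to the same median. Timp1 and Timp3 were the 2 of 5 members at least 2-fold lower in this comparison and 0 of 5 were higher, against 9.5% and 5.9% of all genes. In the comparison of losartan-treated dTGR with SD control, 1 of 5 members was at least 2-fold lower (4.86% of all genes) and 0 higher (2.24% of all genes), and Timp1 was not that member. Comparisons that name the same array share its value and are not independent of each other.

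Promoter sequences are shown for the 3 inhibitors, the only members with a promoter sequence at hand. Over the 4 arrays Timp1 spanned 12.5-fold, Timp2 1.18-fold and Timp3 5.42-fold, and no link between range and sequence was tested. Each run holds the 250 bases before the gene's start, 5′ to 3′ on the gene's strand, from RefSeq on build GRCr8, and all 3 genes lie on the minus strand. The positions are chrX:3771123-3771372 for Timp1, chr10:104089215-104089464 for Timp2 and chr7:19459559-19459808 for Timp3. Capitals mark matches to TGAGTNA, a form of the AP-1 motif bound by Fos and Jun proteins. They also mark AGGAAG, a core bound by Ets factors, and both were searched on both strands. A GC box and a STAT motif were searched too, and their matches are not marked. These motifs were not among the items fixed at the start.
Timp1: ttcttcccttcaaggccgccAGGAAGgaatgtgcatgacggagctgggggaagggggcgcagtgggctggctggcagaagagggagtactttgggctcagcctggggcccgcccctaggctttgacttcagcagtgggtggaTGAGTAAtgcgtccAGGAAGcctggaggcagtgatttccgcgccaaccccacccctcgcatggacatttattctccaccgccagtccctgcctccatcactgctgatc
Timp2: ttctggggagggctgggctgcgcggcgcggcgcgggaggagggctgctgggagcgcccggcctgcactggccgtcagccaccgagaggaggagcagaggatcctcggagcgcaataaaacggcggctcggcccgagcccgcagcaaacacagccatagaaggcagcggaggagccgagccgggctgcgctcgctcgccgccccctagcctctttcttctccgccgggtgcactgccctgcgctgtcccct
Timp3: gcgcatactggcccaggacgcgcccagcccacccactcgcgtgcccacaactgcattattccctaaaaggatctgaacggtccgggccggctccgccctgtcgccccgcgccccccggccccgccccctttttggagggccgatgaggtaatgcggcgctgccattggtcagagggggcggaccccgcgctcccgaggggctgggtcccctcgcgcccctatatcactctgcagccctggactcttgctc

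The window of Timp1 held 1 match to TGAGTNA, spelled TGAGTAA and lying 108 to 102 bases before the start. It also held 2 matches to AGGAAG, at 230 to 225 and at 94 to 89 bases before the start, and none of the 3 matches overlapped another. The windows of Timp2 and Timp3 held 0 matches to either. Of 33469 rat promoters cut to the same length, 11.8% held TGAGTNA and 29.5% held AGGAAG. The GC box GGGCGG was found once in Timp1, once in Timp2 and 3 times in Timp3 (30.5% of all promoters hold it), and the STAT motif TTCNNNGAA in none of the 3 (7.67% of all). These are matches of letters, and no binding was measured.

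Timp2, the inhibitor that links the precursor of Mmp2 to Mmp14 at the cell surface, kept nearly the same level throughout. Its intensity was 1315 in SD control, 1497 in dTGR, 1273 after losartan and 1492 in terminal heart failure. The 4 values spanned 1.18-fold, and the largest of its log2 differences in size, -0.23 between losartan-treated and untreated dTGR, lay well inside the technical SD of 0.60 for that pair. Its probe set has the suffix that Affymetrix gives to sets that can match several similar sequences. The sign of its difference between dTGR and SD control changed with the scaling of the arrays (log2 from -0.05 to 0.21), so no order of the arrays is read from it.

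Timp3, the inhibitor that stays bound to the matrix and also inhibits the shedding protease Adam17, was low on 1 array. It read 159.7 in SD control, 112 in dTGR, 30.1 after losartan and 163 in terminal heart failure. SD control, dTGR and the terminal array lay within 1.45-fold of each other, with log2 differences no larger than 0.54 in size, and the losartan array stood apart from all 3. Timp3 there was 5.32-fold under SD control (log2 difference -2.41, rank 6 from the lowest among 3394 genes), 3.73-fold under untreated dTGR and 5.42-fold under terminal heart failure. Timp3 has a single probe set, its value after losartan lay close to the floor of 26.0, and the losartan array had the highest 3' to 5' ratios, whose part in the result was not tested. With the floor raised to the 60th percentile its log2 difference from untreated dTGR was -0.76, short of 2-fold.

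**Figure D2:**
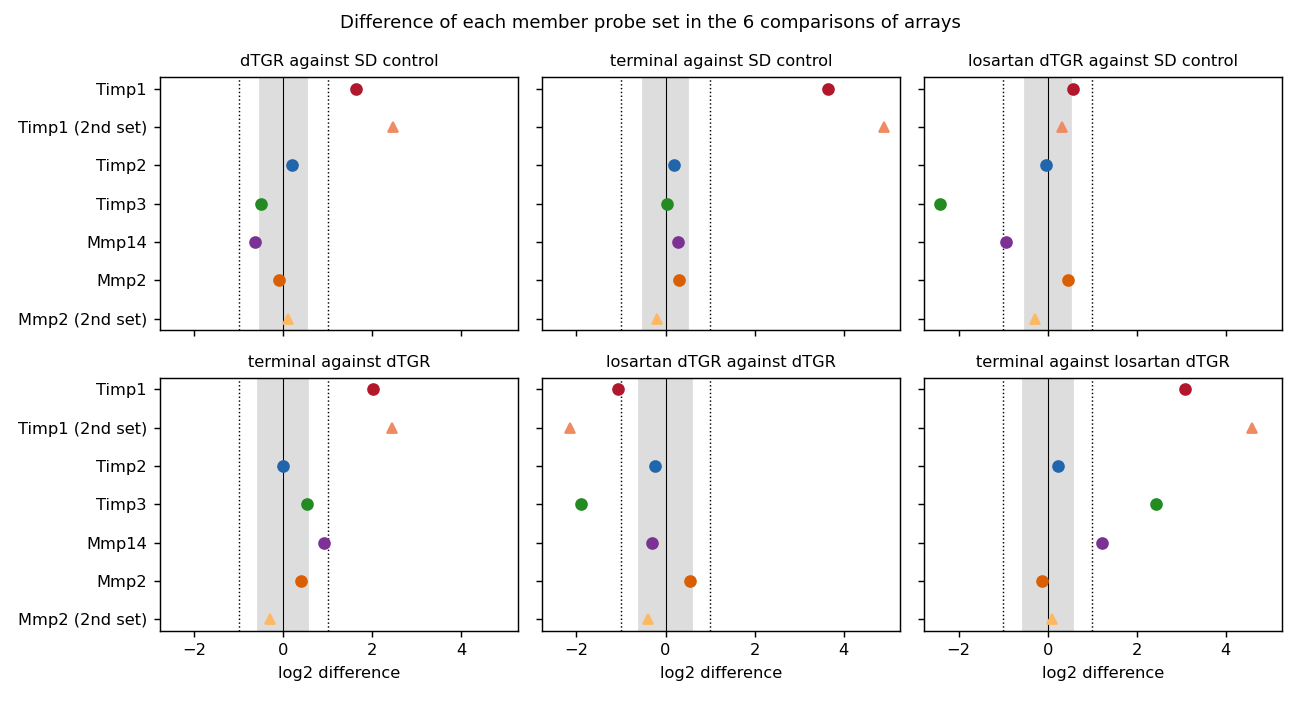
Log2 difference of each member probe set above the floor in the 6 comparisons of arrays (circles, the probe set used for the gene; triangles, a second probe set), with 2-fold dotted and the SD between probe sets of 1 gene shaded. Both Timp1 probe sets lie beyond 2-fold in every panel except losartan-treated dTGR against SD control, Timp3 lies beyond it in the 3 panels with the losartan array, and both Mmp2 probe sets and Timp2 stay within the shaded band in every panel.

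Mmp14, the membrane-bound metalloproteinase that cleaves collagen and activates the precursor of Mmp2, had an intensity of 173 in SD control, 112 in dTGR, 90.5 after losartan and 210.2 in terminal heart failure. The 2 lower values were those of dTGR and losartan-treated dTGR, which differed from each other by -0.31 on the log2 scale, and SD control and terminal heart failure differed by 0.28, both inside the technical SD. The largest difference, 2.32-fold between terminal heart failure and losartan-treated dTGR, made Mmp14 1 of the 3 of 5 members called higher there, beside Timp1 and Timp3, with 0 lower (7.44% and 7.35% of all genes). Terminal heart failure was 1.88-fold above dTGR, and this difference (log2 0.91) passed 2-fold after scaling to the same median (1.20) and after cyclic loess (1.01).

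Mmp2, the gelatinase A made largely by fibroblasts, read 455 in SD control, 429 in dTGR, 623 after losartan and 565 in terminal heart failure. On a second probe set, from another accession, it read 84.3, 90.3, 68.9 and 73.9. The losartan and terminal arrays were the higher ones on the first probe set and the lower ones on the second, so the order of the arrays for Mmp2 was not settled. Each log2 difference of both probe sets lay inside the technical SD of its comparison, the largest being 0.54 between losartan-treated and untreated dTGR, where the second probe set gave -0.39.

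Mmp9, the gelatinase B stored by neutrophils and made by activated macrophages, lay under the floor on all 4 arrays, with intensities from 5.09 to 10.1. No difference is given for it. At this signal a change of Mmp9 was not measurable, which does not show that its level was the same. The members thus comprised Timp1 and Timp3 with differences past 2-fold in several comparisons, Mmp14 in 1 comparison, Timp2 and Mmp2 in none, and Mmp9 without a measurement.

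The pattern of each member with a range of at least 2-fold was compared with all other genes above the floor on at least 2 arrays. The measure was the Euclidean distance between log2 values centred on each gene's own mean, over the 4 arrays. The 5 genes nearest to Timp1 were Pdlim5, a protein of the Z disc, Atf3, a stress-induced transcription factor, Spp1, which encodes osteopontin, the ribosomal protein gene Rpl17 and Tgm1, a transglutaminase. Their distances were 0.49 to 0.76, against a median of 2.95 over all genes compared with Timp1. Atf3 read 49.2 in SD control, 168 in dTGR, 49.4 after losartan and 528 in terminal heart failure. Spp1 and Tgm1 lay under the floor in SD control and after losartan, so their distance rests on floored values. The AP-1 letters found before Timp1 were in 0 of the 4 of these 5 genes that have a promoter sequence, and the Ets letters in 2 of the 4. Of all promoters, 11.8% and 29.5% held them. Of the 5 genes nearest to Timp3, 2 held the AP-1 letters, though Timp3 did not.

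The 5 genes nearest to Timp3 were Orai1, a calcium channel subunit, Apbb1, an adaptor protein, the kinase gene Map3k3, Polr1b, a subunit of RNA polymerase I, and Nr3c1, the glucocorticoid receptor, at distances of 0.30 to 0.63 (median over all genes 2.14). Being chosen for this pattern, they were lowest on the losartan array, at 20.0 for Orai1, 30.0 for Apbb1, 30.0 for Map3k3, 7.04 for Polr1b and 37.1 for Nr3c1, and the distances of Orai1 and Polr1b rest on floored values. For Mmp14 the nearest were Dpep1, Gpr15lg, Chrna4, Pf4 and Hcrtr1, at 0.18 to 0.24 (median 1.22), with Pf4, the platelet factor 4, at 453 in SD control, 277 in dTGR, 279 after losartan and 536 in terminal heart failure. Dpep1, Chrna4 and Hcrtr1 lay under the floor on at least 1 array, so their distances rest on floored values too. With 4 arrays, nearness of patterns is a description of these arrays only.

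**Figure D3:**
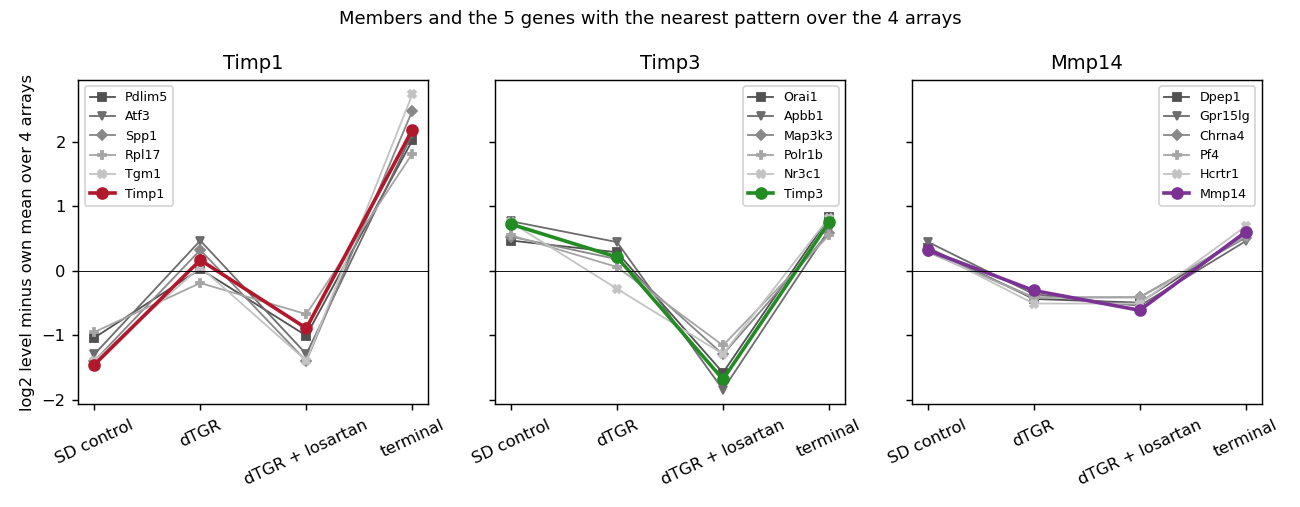
Log2 level minus the gene's own mean over the 4 arrays for Timp1, Timp3 and Mmp14 (coloured) and the 5 genes nearest to each (grey), with values under the floor set to it. The Timp1 group peaks on the terminal array, the Timp3 group has its low point on the losartan array, and the Mmp14 group spans little more than 2-fold.

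A wider list of 61 genes of extracellular proteolysis held 36 genes on the array, of which 25 to 28 were above the floor in a comparison. In terminal heart failure against SD control, 6 of 25 were at least 2-fold higher and 2 lower, where 6.38% and 8.4% of all genes were. The median log2 difference was 0.00 against -0.14 over all genes. Lcn2, a lipocalin that binds Mmp9, was 14.8-fold higher (99.1 in SD control, 154 in dTGR, 147 after losartan and 1467 in terminal heart failure). Lox, which cross-links collagen and elastin, read 109.8, 97.0, 41.8 and 530.0 in that order and was 4.83-fold higher, with log2 differences of 1.37 to 2.11 on its other 3 probe sets, the highest of them a bound. Plaur, the receptor of urokinase, was 4.69-fold higher, and Plat, the tissue plasminogen activator, 2.58-fold higher. The serpins Serping1, the inhibitor of complement C1, and Serpina3n were 2.89-fold and 2.58-fold higher. Pcsk6, a proprotein convertase, and Mmp11, stromelysin 3, were 3.04-fold and 2.04-fold lower.

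In dTGR against SD control, 4 of 28 genes of the list were higher and 0 lower, against 7.69% and 5.87% of all genes (median -0.11 against 0.03). With median scaling 2 were higher and 4 lower, and after cyclic loess 1 was higher and 2 were lower. Pcsk5, a proprotein convertase, was 2.48-fold and Plau, urokinase, 2.44-fold higher. Mmp7 and Mmp13, matrilysin and collagenase 3, were at least 2.36-fold and at least 2.16-fold higher, as bounds. Both were at or under the floor in SD control and were above it on the dTGR array alone. That array had the most values above the floor (63.5%, against 58.2% to 59.1% on the others), and the part of this was not tested. None of the 4 reached 2-fold with the floor at the 60th percentile. After losartan, against SD control, Serping1 was 2.19-fold higher, and Serpine2, protease nexin 1, and Lox were 2.66-fold and 2.63-fold lower. These were the 1 of 25 higher and 2 of 25 lower genes of that comparison, where the shares over all genes were 2.24% and 4.86% (median 0.04 against 0.00). The other Lox probe sets above the floor on both arrays were at -0.08 and -0.34 there.

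Between disease arrays, 6 of 28 list genes were called higher on the terminal array than in dTGR and 4 lower, with 7.69% and 11.8% over all genes (median 0.00 against -0.18). In losartan-treated against untreated dTGR, 3 of 27 were higher and 5 lower, with 5.9% and 9.5% over all genes (median -0.10 against -0.05). This split became 3 higher and 2 lower with median scaling and 5 higher and 2 lower after cyclic loess. The terminal array against the losartan array had 4 of 25 higher and 2 lower, with 7.44% and 7.35% over all genes (median 0.09 against -0.12). Of the metalloproteinases on the list, Mmp8, Mmp10, Mmp12 and Mmp16 lay under the floor on all 4 arrays, as Mmp9 did.

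**Figure D4:**
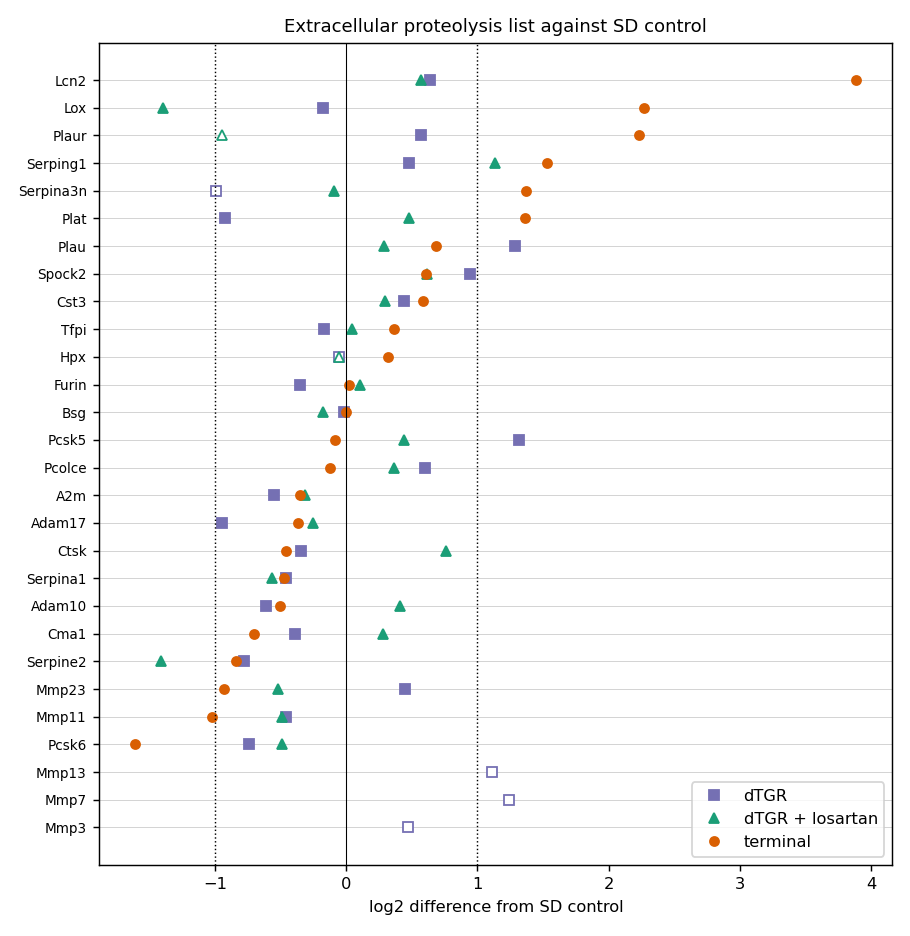
Log2 difference from SD control of each gene of the extracellular proteolysis list above the floor, for dTGR (squares), losartan-treated dTGR (triangles) and terminal heart failure (circles), with open symbols for bounds and 2-fold dotted. Lcn2, Lox and Plaur lie farthest to the right on the terminal array, while Pcsk6 lies farthest to the left on it.

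A short fixed list of matrix genes was read beside the members. Of its 8 genes on the array, each of them above the floor, 0 were called higher and 4 lower in terminal heart failure against SD control. The shares over all genes were 6.38% and 8.4%, and the median was -0.76 against -0.14. These 4 were Col3a1 (4.02-fold), Lum (3.18-fold), Eln (2.50-fold) and Col1a1 (2.15-fold), which encode fibrillar collagens, lumican and elastin. Short of 2-fold, Dcn and Fn1 were higher (log2 differences of 0.58 and 0.52) and Col1a2 and Bgn lower (-0.42 and -0.12). Outside this list, Postn (15.0 in SD control and 103.7 in terminal heart failure) and Spp1 (4.08 and 384) were higher, both from under the floor. In dTGR, Col1a1 was the 1 of 8 called lower (2.13-fold, with log2 differences of -0.75 to -0.29 on its other probe sets) and 0 were higher, against 5.87% and 7.69% of all genes.

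Markers of other cell types differed between the arrays as well, and in total RNA of a tissue fewer cells of a type and less RNA per cell cannot be told apart. Of 12 macrophage markers 7 were on the array, with summed intensities of 2850 in SD control, 3505 in dTGR, 3425 after losartan and 4769 in terminal heart failure. In terminal heart failure against SD control 3 of 6 above the floor were higher and 1 lower (6.38% and 8.4% of all genes), and Csf1r was under the floor on all arrays. The lower marker was Cd74, which read 1532, 1380, 1986 and 666 in the same order and weighs heavily in the sums. Of 10 neutrophil markers 4 were on the array, with sums of 46.3, 128, 46.1 and 177 in the same order. The losartan sum holds only values under the floor, and in SD control S100a9 alone was above it, at 27.1. Sums of such low values are not measured levels. The 2 above the floor in terminal heart failure were S100a8 and S100a9, at 90.5 and 77.9, while Itgam was under it on every array. Cxcr2, the remaining neutrophil marker, read 59.3 in dTGR and lay under the floor on the other 3 arrays. The macrophage and neutrophil sums were highest on the terminal array, as Timp1 was, and their part in the Timp1 result was not tested.

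Fibroblast markers (9 of 10 on the array) summed to 15478, 13479, 15408 and 14826, with 1 of 9 higher and 3 lower in terminal heart failure against SD control (6.38% and 8.4% of all genes). Dcn alone made up 11486 of the terminal sum. Endothelial markers (6 of 10) summed to 373, 586, 480.0 and 498, and they differed in order. Kdr read 111, 191, 246 and 54.6, and Flt1 80.9, 133, 34.5 and 133. Vwf and Sele were above the floor on the dTGR array alone. In terminal heart failure against SD control, 0 of 4 endothelial markers above the floor were called higher and 1 lower (6.38% and 8.4% of all genes). Smooth muscle markers (5 of 7) summed to 7171, 9473, 5073 and 8310. Des made up most of the smooth muscle sum (3953 after losartan), so the sum mainly follows Des. The other markers did not share 1 order, since Acta2 and Myh11 were lowest in dTGR, at 691 and 55.7. Tagln and Cnn1 were highest there, at 292 and 58.6. Mast cell markers (6 of 8, of which 3 were above the floor) summed to 198, 224, 216 and 119. Cardiomyocyte markers (9 of 10) summed to 98707, 195167, 131743 and 93323, with the highest sum on the dTGR array. The part of these markers in the Timp1 result was not tested. Actc1 alone made up 44905 of the dTGR sum. In dTGR against SD control 2 of 9 were called higher and 0 lower (7.69% and 5.87% of all genes). Pln read 3091 in SD control and 2717 in dTGR, and Ryr2 110 and 113. In terminal heart failure against dTGR, 0 of 9 cardiomyocyte markers were called higher and 5 lower (7.69% and 11.8% of all genes).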

How the data were processed

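The deposited table holds linear intensities, 1 for each probe set of an array. Which software the authors used for them is not given in the sources used here. The array was the first of the rat genome U34 set, per the file headers of the 4 instrument records, which also gave the chip lot, run day and fluidics protocol. Deposited trimmed means were 200.2 to 200.3 per array and medians 38.7 to 47.4. Many values under 32 look as if a spreadsheet had rewritten them as day and month, which moves them by less than 1 unit.

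Arrays were brought to a common trimmed mean (2% off each end), values under the 40th percentile of all values were raised to it, and values were put on the log2 scale. Controls (59 of 8799 probe sets) and probe sets with no symbol (1426) or several (308) were left out. The probe set with the highest mean stood for its gene. The 8 member probe sets all matched the rat gene table by identifier. Genes were called at 2-fold, with no test, since each group had 1 array. Steps were run on simulated data, with noise under the technical SD and changes well past 2-fold in genes well above the floor. That run does not bear on calls near 2-fold or near the floor. Named genes were the members, the 5 nearest in pattern, list genes past 2-fold against SD control and fixed matrix genes. Single cell type markers, list genes under the floor, Furin and the genes low on the losartan array were named after their values were seen. Members and lists were chosen with earlier results of these data known. Other settings were 7 chosen at the start and 1, reading low values with 1 decimal, chosen after seeing the data. Python 3.11.15 and, for cyclic loess, limma 3.58.1 were used.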

Additional observations from a re-analysis of the deposited data

How the results depend on the processing

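Over 8 alternative settings, 235 of 240 values of member differences moved by less than the SD between probe sets of a gene and 0 called differences changed sign. Many of these values could not move, so the count is no measure of robustness. A floor at the 25th percentile cannot change members already above the floor. A median over probe sets cannot change Timp2, Timp3 and Mmp14, which have 1 probe set each. With the floor at the 60th percentile, Timp3 after losartan had log2 differences of -1.27 from SD control and -0.76 from dTGR, and terminal heart failure exceeded it by 1.30, since a higher floor caps how low a value can be. When the median over its probe sets stood for a gene, Timp1 in terminal heart failure was 4.28 above SD control and 3.84 above losartan-treated dTGR. In the extracellular proteolysis list, the count past 2-fold with the floor at the 60th percentile was 0 in place of 4 for dTGR and 1 in place of 3 for losartan-treated dTGR, each against SD control. It was 6 in place of 10 for terminal heart failure against dTGR and 2 in place of 8 for losartan-treated against untreated dTGR, where median scaling gave 5. Median scaling moved the median of all genes in dTGR against SD control by -0.22 and turned its higher and lower shares from 7.69% and 5.87% to 4.47% and 10.7%. It also turned those of terminal heart failure and of losartan treatment against dTGR to 12.4% and 6.36% and to 9.49% and 6.11%. Cyclic loess gave 7.98% and 5.90% for the terminal array against SD control and 8.94% and 5.88% against the losartan array. No paired analysis was possible because each group had 1 array. With 1 array per group, no replicate could be left out, and signal near the floor limits Mmp9 and Timp3.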

Other observations

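Genes that were low on 1 array alone were counted after the values of Timp3 had been seen. Of 2673 genes above the floor on the other 3 arrays, 4 were at least 3.73-fold under the lowest of them on the losartan array, namely Timp3, Apbb1, Cited2 and Med25. This threshold was the fold by which Timp3 itself was lower after losartan than in dTGR, so Timp3 counts by construction. Values under the floor were set to it, so genes close to the floor on another array could not reach the threshold. Orai1 (95.1 in dTGR and 20.0 after losartan) and Polr1b (60.5 and 7.04) were left out in this way, so the count is a lower limit. The same count gave 0 genes for the SD control array, 5 for the dTGR array and 5 for the terminal array. The 4 genes had 3 other probe sets above the floor on the other arrays, of which 2 were also at least 2-fold under the lowest of them.

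Furin, a convertase that activates the Mmp14 precursor, was also picked after its values were seen, because its 2 probe sets disagreed on the losartan array. The probe set used read 293 in SD control, 230.2 in dTGR, 315 after losartan and 297 in terminal heart failure. The other read 241, 222, 50.8 and 207 in that order, with a log2 difference of -2.24 between losartan-treated dTGR and SD control, where the first gave 0.10. Both come from 1 accession. Pcsk6 and Col3a1, picked in the same way, each had a second probe set lower there, at -2.31 (a bound) and -1.50. The sets used for them gave -0.49 and -0.14. For Lox the set used was the lower one, and the Col1a1 probe sets lay close together, from -0.64 to -0.31. Timp3, with a single probe set, allows no such comparison.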
